A study of Homo sapiens with 8 samples.

Results

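Beta-defensins and other antimicrobial proteins that epithelial cells make were followed in CAL-27 cells, an established human line from a squamous carcinoma of the tongue, after 24 h with inhibitors of protein kinase C. The genes asked for were DEFB1, DEFB4A, DEFB103A, DEFB103B, LCN2, RNASE7 and CAMP, 7 names in all. They were found by the gene name that the scanner tables give each probe, where DEFB4A carried its older name DEFB4. They came to 6 probes of the 41000 on the array, which cover 18091 named genes, 1 for each gene except that DEFB103A and DEFB103B shared 1 probe. These 2 genes are near-identical copies, so their transcripts were not told apart and are written DEFB103 here. The set was chosen by a measured value, the lower intensity of the DEFB103 probe with Go than with enzastaurin, so the values of that probe, and every difference between Go and enzastaurin, are given as a description with no test, for other genes too.

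The groups were Go (n = 2), a compound that the labels name only in this way and whose dose they do not give, enzastaurin at 10 µM (n = 3), and control (n = 3). The protocol given for all 8 samples has 24 h without serum followed by 24 h of treatment, and what the control cells received in place of a compound is not stated. Total RNA was labelled with 1 dye and hybridised to 1 array per sample. The labels do not say that replicates were separate cultures, so p-values speak only for the scatter among the arrays at hand, which may be technical and whose number limits the precision. CAL-27 is 1 tumour line, and lower transcript per cell cannot be told apart from fewer cells that make it.

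Beta-defensins are small cationic peptides, secreted by skin and mucosa, that damage the membranes of bacteria and fungi. DEFB1 is made by many epithelia without a stimulus, whereas DEFB4A and DEFB103 are induced by microbial products and cytokines such as IL-1 and TNF, and DEFB103 also through the EGF receptor. LCN2 binds the iron carriers of bacteria, RNASE7 is a ribonuclease with antimicrobial action in skin, and CAMP gives rise to the peptide LL-37. Several of these genes are controlled by NF-kB, AP-1 and C/EBP transcription factors, which can act downstream of protein kinase C.

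All 8 arrays held 45220 spots, and 52.1% to 57.3% of the probes lay above background, which means a signal-to-noise score over 3. Keratinocyte markers were present: all 5 of those with a probe (KRT5, KRT14, KRT17, TP63 and SFN) were above background on 8 of 8 arrays, and KRT6A had no probe under that name. Their summed intensity was 41767 to 44029 in Go arrays, 46549 to 66353 in enzastaurin arrays and 39472 to 50564 in control arrays. The 6 neutrophil markers summed to 31 to 85 in Go, 32.5 to 56 in enzastaurin and 72 to 117 in control. AZU1 and CSF3R were above background on 1 array each, and MPO, ELANE, FCGR3B and CD177 on 0. Of the 5 monocyte and macrophage markers, CD14 was above background on 8 arrays, ITGAM on 6, MARCO on 2, CD163 on 1 and PTPRC, which marks blood cells, on 0. They summed to 180.5 to 275 in Go, 209 to 253.5 in enzastaurin and 184 to 265 in control. MARCO, a macrophage scavenger receptor, passed the filter only through control arrays, with enzastaurin minus control at -0.47 as a description, and CD14 and ITGAM were not called in either comparison with control. Of the 5 fibroblast markers, COL1A1 and LUM were above background on 7 arrays each, DCN on 2, COL1A2 on 1 and PDGFRA on 0, and they summed to 133 to 172 in Go, 148.5 to 187 in enzastaurin and 104 to 138 in control. LUM, lumican, read 40 and 42 in Go, 81, 96 and 98 in enzastaurin and 37, 24 and 37 in control on the authors' scale, and was called higher with enzastaurin than in control (0.55, limma's adjusted p 0.000929), a call lost with the slide as a block. COL1A1 read 49 and 59 in Go, 51, 52 and 41 in enzastaurin and 31, 37 and 28 in control and was not called in either comparison with control, and DCN, decorin, was at -0.33 for enzastaurin minus control, above background on 0 enzastaurin arrays and 1 control array.

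Some of the keratinocyte markers themselves moved. With Go 0 of 5 were called higher and 3 lower than control, against 11.6% and 20.1% of all genes. The median log2 difference was -0.51 against -0.10 over all genes. Those called were KRT14, a basal keratin, at -0.79, TP63, the epithelial stem cell factor, at -0.64 and SFN, stratifin, at -0.51. Their limma adjusted p was 0.0319, 0.0181 and 0.00698, none was called with arrays scaled to their median, and with the slide as a block only SFN was (-0.46, adjusted p 0.0319). The KRT14 call was also lost with arrays scaled to their 75th percentile (-0.69, limma's adjusted p 0.0573). Of 8 fits that left out an array, KRT14 lost its call in 5 and TP63 in 2. KRT5 and KRT17 were not called with Go. On the authors' scale KRT5 read 16059 and 20275 in Go and 15421, 12346 and 13760 in control. KRT17 read 7824 and 8430 in Go and 9877, 7589 and 7858 in control. With enzastaurin TP63 was lower (-0.76, limma's adjusted p 0.00209) and SFN higher (0.31, adjusted p 0.00709). These 2 calls held with median scaling and were lost with the slide as a block. What part these markers or other cells had in any difference below was not tested.

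Spot positions place Go 1 on 1 slide with all control arrays and Go 2 on another with all enzastaurin arrays, so enzastaurin and control share no slide. With the slide as a block, Go minus control therefore rests on Go 1 and Go minus enzastaurin on Go 2. For Go minus control that fit gives the same values as leaving out Go 2, so these are not separate checks.

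Of the 6 probes, 5 were above background on at least 2 arrays and entered the fit, and DEFB4A, LCN2 and RNASE7 were above background on all 8. Of the inducible defensins, DEFB4A transcript was higher with enzastaurin than in control, and DEFB103 was lowest with Go. RNASE7 was lower with Go than in control. DEFB1 and LCN2 passed the test in neither comparison with control, and CAMP was not well above background on any array.

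**Figure D1:**
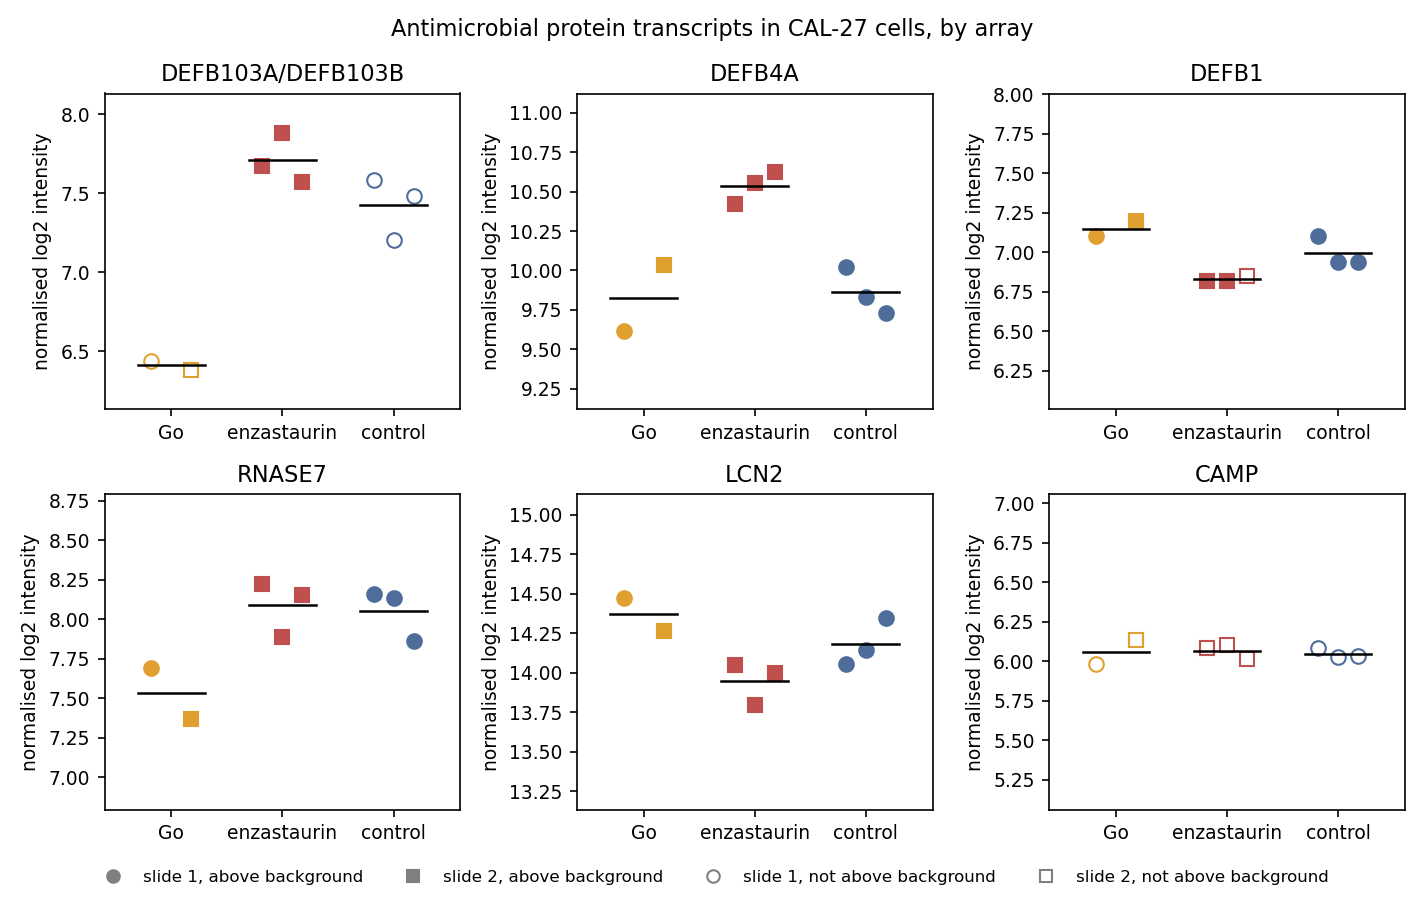
Normalised log2 intensity (vertical axis) of the 6 probes on each of the 8 arrays, by group; points are arrays, bars are group means, squares and circles mark the inferred slide and open symbols a spot not above background. The DEFB103 panel shows both Go arrays at 6.38 and 6.44, under all enzastaurin and control arrays.

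DEFB103 encodes an inducible beta-defensin that kills Gram-positive and Gram-negative bacteria. On the authors' background-subtracted intensity scale, which is not normalised, its probe read 31 and 15 in Go arrays, 175, 237 and 140 in enzastaurin arrays and 109, 79 and 119 in control arrays. Both Go values lay under all the others, and each enzastaurin value lay over each control value. On the normalised log2 scale the levels were 6.44 and 6.38 in Go, 7.67, 7.88 and 7.57 in enzastaurin and 7.59, 7.21 and 7.48 in control, where enzastaurin and control overlapped. The normalised log2 difference was -1.30 for Go minus enzastaurin, and -1.78 to -1.21 over the alternatives tried. No Go array measured the probe above background, so no fold is given. Go minus control was -1.01, and since the probe was not well above background in either group, no fold is given. Enzastaurin minus control was 0.28, and 0.17 with arrays scaled to their 75th percentile or without control 2. The probe passed the filter only through the enzastaurin arrays and the groups overlapped, so no fold is given.

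The DEFB103 spot was above background only on the 3 enzastaurin arrays, with signal-to-noise scores of 3.85, 4.40 and 3.33. The scores were 1.88 and 0.50 on the Go arrays and 1.35, 0.77 and 2.87 on the control arrays. Background pixels around this spot were uneven: their SD was 16 and 26 on Go arrays, 40, 50 and 40 on enzastaurin arrays and 68, 69 and 38 on control arrays, whereas the median over all probes was 10 to 12. The control arrays combined intensities of 79 to 119 with background SDs of at least 38, and the Go arrays combined lower intensities with SDs of at most 26.

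**Figure D2:**
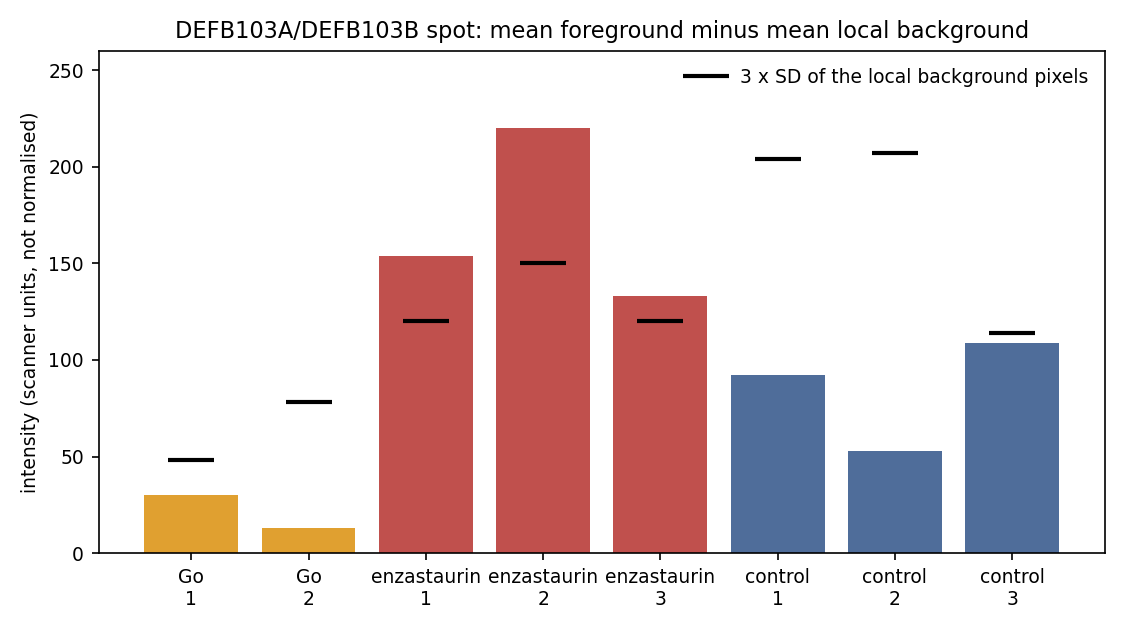
Mean foreground minus mean local background of the DEFB103 spot (bars, scanner units, not normalised) on each array, with 3 times the SD of the local background pixels (black dashes); a bar over its dash is above background. The 3 enzastaurin bars exceed their dashes, and the Go and control bars do not.

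Bright spots lay beside it. A positive control spot 70 to 75.2 µm away had foreground means of 47849 and 54236 on the Go arrays, 49636, 51455 and 48738 on the enzastaurin arrays and 38199, 38737 and 40828 on the control arrays. The neighbouring PPT1 spot, for a lysosomal enzyme, had foreground means of 11134 and 8670 on Go arrays, 11118, 13770 and 10774 on enzastaurin arrays and 5928, 5945 and 9593 on control arrays. On the Go arrays the positive control spot lay on either side of the enzastaurin range, while the PPT1 spot lay within that range on Go 1 and under it on Go 2. What part these spots had in the DEFB103 values was not tested. Within a slide, the normalised log2 difference of DEFB103 was -1.33 for Go 2 minus the enzastaurin mean and -0.99 for Go 1 minus the control mean, and the Go arrays differed from each other by 0.05.

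DEFB4A encodes the inducible defensin of inflamed skin. Its probe read 825 and 958 in Go, 1563, 2094 and 1718 in enzastaurin and 792, 660 and 852 in control on the authors' scale. Every enzastaurin array exceeded every other array, while Go and control overlapped. In normalised log2 intensity the levels were 9.62 and 10.03 in Go, 10.42, 10.55 and 10.62 in enzastaurin and 10.02, 9.83 and 9.73 in control. Enzastaurin minus control was 0.67 ± 0.12 (SE), a 1.59-fold rise in limma's moderated test with a Benjamini-Hochberg adjusted p of 0.00252 over 12908 genes. With the slide as a block the difference was 0.26 and the adjusted p 0.397, and the call was lost. That fit links enzastaurin and control only through the 2 Go arrays. In the same comparison the keratinocyte marker SFN was called higher and TP63 lower (-0.76), and KRT5, KRT14 and KRT17 were not called. Of the fibroblast markers LUM was called higher, DCN was at -0.33 and COL1A1 was not called. Go minus control was -0.04, with a 95% interval of -0.35 to 0.28 and limma's adjusted p of 0.857. As a description, Go minus enzastaurin was -0.71, and within the slide they share Go 2 lay 0.50 log2 units under the enzastaurin mean (-0.50).

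DEFB1, the constitutive defensin of the kidney, airway and skin, read low in all groups. The authors' intensities were 89 and 82 in Go, 57, 65 and 50 in enzastaurin and 62, 44 and 63 in control. The Go values were the highest. The normalised log2 levels were 7.10 and 7.19 in Go, 6.82, 6.82 and 6.85 in enzastaurin and 7.10, 6.94 and 6.94 in control. Enzastaurin 3 was not above background at this spot, with a score of 0.88 and a background SD of 51. Enzastaurin minus control was -0.16 (adjusted p from limma 0.0901), and with arrays scaled to their 75th percentile it was -0.40 with an adjusted p of 0.00855. Go minus control was 0.16 (adjusted p from limma 0.170; 95% interval -0.03 to 0.34), and Go minus enzastaurin, as a description, was 0.32.

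RNASE7 encodes a ribonuclease that keratinocytes secrete onto the skin. Its probe read 166 and 94 in Go, 279, 229 and 249 in enzastaurin and 195, 141 and 169 in control on the authors' scale. The enzastaurin arrays were the highest on that scale. After normalisation the log2 levels were 7.69 and 7.37 in Go, 8.22, 7.89 and 8.15 in enzastaurin and 8.16, 8.14 and 7.86 in control, so enzastaurin and control overlapped and both Go arrays lay under them. Go minus control was -0.52 ± 0.15 (SE), 1.44-fold lower, with an adjusted p of 0.0285 from limma. With the slide as a block, the same fit as without Go 2, the difference was -0.36 and this call was lost. The call was lost with arrays scaled to their median (-0.41, limma's adjusted p 0.0619), and without control 1 (adjusted p 0.0787) or control 2 (adjusted p 0.0898). It was also lost in a fit of these 2 groups alone (adjusted p 0.0752). Of the keratinocyte markers, KRT14, TP63 and SFN were called lower in the same comparison, and KRT5 and KRT17 were not called. Enzastaurin minus control was 0.03, with a 95% interval of -0.26 to 0.33 and limma's adjusted p of 0.833. Go minus enzastaurin was -0.56 as a description, and within slides Go 2 minus enzastaurin was -0.72.

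LCN2, the iron-scavenging lipocalin, was bright on every array. The authors' intensities were 24768 and 21170 in Go, 21220, 20162 and 18498 in enzastaurin and 15260, 15342 and 21188 in control. Enzastaurin and control overlapped on that scale. The normalised log2 levels were 14.47 and 14.27 in Go, 14.05, 13.79 and 14.00 in enzastaurin and 14.05, 14.14 and 14.35 in control. Enzastaurin minus control was -0.24 (adjusted p from limma 0.0915), and it was 0.059 with arrays scaled to their median, so no direction is given. Go minus control was 0.19 (adjusted p from limma 0.245; 95% interval -0.09 to 0.46), and Go minus enzastaurin, as a description, was 0.42.

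CAMP, which gives rise to the peptide LL-37, read 5 and 5 in Go, 15, 4 and 3 in enzastaurin and 7, 1 and 5 in control on the authors' scale. Its signal-to-noise score stayed at or under 0.89, so it was not tested and has no fold.

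**Figure D3:**
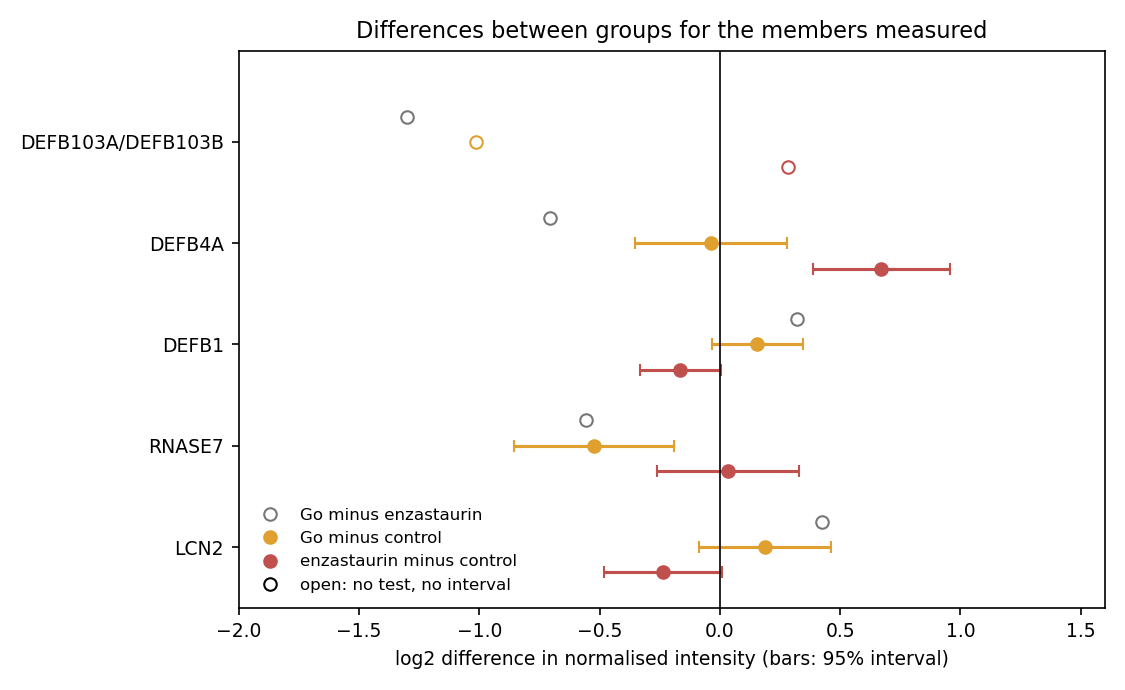
Log2 difference in normalised intensity (horizontal axis) for the 5 measured probes in each comparison, with 95% intervals from limma where a test was made; open points are descriptions without a test. DEFB4A lies to the right of 0 for enzastaurin minus control, RNASE7 to the left for Go minus control, and DEFB103 to the left in both comparisons of Go.

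Of the 4 probes tested against control, 1 was called higher with enzastaurin and 0 lower, where 18.1% of all 12908 genes were called higher and 36.8% lower. With Go, 0 were called higher and 1 lower, where 11.6% of all genes were called higher and 20.1% lower. The groups did not overlap for 3 of these 4 with enzastaurin, against 68.9% of all genes, and for 2 of 4 with Go, against 57.4%. For Go minus enzastaurin, the contrast behind the choice of the set, the groups did not overlap for any of the 5 probes, and 48.1% of all genes had no overlap, 4.90% were called higher and 3.27% lower. Scaling arrays to their median moved the median of all genes for enzastaurin minus control to 0.062, from -0.14 with quantile normalisation, and the share of calls that were higher to 62.0%, against 33.0%. For Go minus control that share was 69.1% with this scaling and 36.6% without it, and for Go minus enzastaurin 31.8% and 60.0%.

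The sequence before the start of transcription was at hand in RefSeq (GRCh38.p14) for 3 of the 7 genes, LCN2, RNASE7 and CAMP. The 250 bases are shown for LCN2 and RNASE7, a transcript bright on all arrays and one lower with Go. They lie on the plus strand at chr9:128149203-128149452 and chr14:21042112-21042361. Both strands were searched for the letters TGANTCA (AP-1), TTNNGNAA (C/EBP), and GGG and CC with any 5 bases between them (NF-kB), and capitals mark the matches, which overlap only where stated.
LCN2: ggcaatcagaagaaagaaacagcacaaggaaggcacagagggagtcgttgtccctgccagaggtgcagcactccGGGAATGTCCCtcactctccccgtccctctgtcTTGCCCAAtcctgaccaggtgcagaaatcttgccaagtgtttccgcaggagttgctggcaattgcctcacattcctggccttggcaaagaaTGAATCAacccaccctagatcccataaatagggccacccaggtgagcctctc
RNASE7: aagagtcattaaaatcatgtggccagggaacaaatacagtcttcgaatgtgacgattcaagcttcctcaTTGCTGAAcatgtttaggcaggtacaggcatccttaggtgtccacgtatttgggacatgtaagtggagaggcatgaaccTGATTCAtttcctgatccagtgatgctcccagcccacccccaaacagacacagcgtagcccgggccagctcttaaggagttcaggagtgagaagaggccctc
The AP-1 letters occurred 1 time in each, 52 to 46 bases before the start in LCN2 and 102 to 96 bases before it in RNASE7, and 6.57% of 35114 promoter windows of this length hold them. The NF-kB letters occurred 2 times in LCN2, at 176 to 167 and, overlapping on the other strand, at 175 to 166 bases before the start, and 0 times in RNASE7, with 54.4% of all windows holding them. The C/EBP letters occurred 1 time in each, at 143 to 136 bases in LCN2 and 181 to 174 bases in RNASE7, against 33.2% of all windows. CAMP (chr3:48223245-48223494, plus strand) had 0 matches of any kind. A match describes the letters only.

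Other secreted host defence genes of epithelia changed in both directions. Among those called, PI3 had the largest difference with enzastaurin and CCL20 with Go. Of 35 listed genes 20 were measured. With enzastaurin 4 were called higher and 9 lower than control, against 18.1% and 36.8% of all genes. The median log2 difference was -0.27 against -0.14 over all genes. PI3, the elastase inhibitor elafin, had normalised log2 levels of 11.50 and 11.88 in Go, 9.55, 9.82 and 9.43 in enzastaurin and 11.81, 11.68 and 11.17 in control. Each enzastaurin array lay far under all the others. It fell by 1.95 with enzastaurin against control (3.87-fold, limma's adjusted p 0.000266), and the call held with the slide as a block (-2.34, adjusted p 0.0154). SLPI, the secretory leukocyte protease inhibitor, was at 15.26 and 15.36 in Go, 14.61, 14.40 and 14.66 in enzastaurin and 15.23, 15.26 and 15.17 in control. Its difference was -0.67 with enzastaurin (limma's adjusted p 0.000624), and -0.77 with the slide as a block (adjusted p 0.0460). WFDC2, a related whey-acidic-protein family member, fell by 0.89 and S100A7A, a paralog of psoriasin, by 0.76 with enzastaurin, and both calls were lost with the slide as a block.

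With Go, 5 of these 20 genes were called higher and 1 lower than control, against 11.6% and 20.1% of all genes. The median was 0.10 against -0.10 over all genes. CCL20, a chemokine with antibacterial action that shares the receptor CCR6 with beta-defensins, had log2 levels of 10.31 and 9.99 in Go, 9.42, 9.45 and 9.52 in enzastaurin and 8.32, 9.03 and 9.22 in control. Go arrays were the highest and control arrays the lowest. It was higher by 1.29 with Go (2.45-fold, limma's adjusted p 0.00942), and by 1.46 with the slide as a block (adjusted p 0.0295). CCL28, a mucosal chemokine with antimicrobial action, was higher by 0.76 (adjusted p 0.00696), at 8.16 on both Go arrays, 7.40, 7.35 and 7.41 in enzastaurin and 7.15, 7.48 and 7.57 in control. S100A9, a subunit of the metal-binding protein calprotectin, was higher by 0.59 with Go and WFDC2 was lower by 0.66 (-0.66), and both calls were lost with the slide as a block. That fit, the same as without Go 2, gave S100A9 0.55 and WFDC2 -0.58. Without control 2 WFDC2 had an adjusted p of 0.0658 from limma. As a description, Go minus enzastaurin had a median of 0.30 over this list, with PI3 at 2.09, CCL28 at 0.77, SLPI at 0.75 and PGLYRP4, a peptidoglycan recognition protein, at 0.53. The comparisons share arrays, so their values are not independent.

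Among other defensins, 16 of 24 listed genes had a probe and 3, DEFB104A, DEFB106A and DEFB123, passed the filter. All 3 had at least 2 arrays above background only in control, so their differences are given as a description with no test. DEFB123, a beta-defensin, had log2 levels of 6.71 and 6.07 in Go, 6.24, 6.06 and 5.99 in enzastaurin and 7.54, 7.73 and 7.25 in control. All control arrays lay over all treated arrays. It was above background on 3 control arrays, 1 Go array and 0 enzastaurin arrays. Enzastaurin minus control was -1.41 in log2, and -0.77 with the slide as a block. Go minus control was -1.11 in log2, and -0.79 with the slide as a block. DEFB106A was above background on 3 control arrays and 0 enzastaurin arrays. Its enzastaurin minus control difference was -0.33, and 0.03 with the slide as a block, so no direction is given.

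The cytokines, ligands and receptors that induce defensins had 29 of 36 genes measured. With enzastaurin 5 were called higher and 10 lower (median -0.16), and with Go 3 higher and 5 lower (median -0.05). Over all genes 18.1% were called higher and 36.8% lower with enzastaurin (median -0.14), and 11.6% and 20.1% with Go (median -0.10). The counts are not read as a response of the list. IL1B, the inflammatory cytokine, was at 13.44 and 13.58 in Go, 13.38, 13.38 and 13.36 in enzastaurin and 12.04, 12.62 and 13.07 in control. Control arrays spread over about 1 log2 unit and lay under all treated arrays. IL1B was higher by 0.93 with Go (adjusted p 0.0221) and by 0.80 with enzastaurin (adjusted p 0.0126). IL36G, a cytokine of the IL-1 family made by keratinocytes, was lower in both, by -0.93 with Go (adjusted p 0.00730) and -0.87 with enzastaurin (adjusted p 0.00120). TNFRSF1A, the main TNF receptor, differed by -0.82 with Go and -0.64 with enzastaurin, EREG, an EGF receptor ligand, by 0.47 with Go, and IL17RE, the receptor of the epithelial cytokine IL-17C, by -0.66 with enzastaurin. With the slide as a block limma kept the call of IL36G with Go (-0.74, adjusted p 0.0389) and lost the other calls named for these 5 genes. That fit, for Go minus control the same as without Go 2, gave IL1B 0.86, TNFRSF1A -0.66 and EREG 0.43. Without control 2 these 3 genes had limma adjusted p of 0.0645, 0.0672 and 0.0671 for Go minus control, and without control 1 TNFRSF1A had 0.0515. For TNFRSF1A with enzastaurin limma's adjusted p was 0.0505 without control 1 and 0.0588 without control 2. With arrays scaled to their median that difference was -0.34 (limma's adjusted p 0.0958). As a description, Go minus enzastaurin was 0.52 for IL20RB, a receptor subunit of IL-20 family cytokines, -0.56 for IL1RAP, the shared IL-1 receptor subunit, and -0.40 for TLR6, a receptor subunit for bacterial lipoproteins.

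Regulators of these genes had 27 of 28 genes measured. They were mostly transcription factors but also the NF-kB inhibitor NFKBIA, the ribonuclease ZC3H12A and the vitamin D enzymes CYP27B1 and CYP24A1. With enzastaurin 6 were called higher and 9 lower (median -0.08), against 18.1% and 36.8% of all genes (median -0.14). With Go 3 were called higher and 3 lower (median 0.03), against 11.6% and 20.1% of all genes (median -0.10). JUNB, an AP-1 subunit, was at 11.34 and 11.95 in Go, 12.10, 12.07 and 12.11 in enzastaurin and 10.79, 10.58 and 10.62 in control. Every treated array exceeded every control array. It was higher by 1.43 with enzastaurin (2.69-fold, limma's adjusted p 0.000311) and by 0.98 with Go (1.97-fold, adjusted p 0.00730), and with the slide as a block by 0.82 (adjusted p 0.0296) and 0.67 (adjusted p 0.0126). CEBPE, a C/EBP factor known from granulocytes, was higher by 0.97 with enzastaurin and 0.94 with Go, and by 1.05 and 0.98 with the slide as a block, all called. JUN, another AP-1 subunit, differed by -0.60 with Go (adjusted p 0.00887) and NFKB1, a subunit of NF-kB, by -0.53 (adjusted p 0.0142). The NFKB1 call was lost with the slide as a block, the same fit as without Go 2, and without control 2 (limma's adjusted p 0.0529). The JUN call was kept in each. NFKB1 also lost its call with Go when arrays were scaled to their median (-0.35, limma's adjusted p 0.0948). HIF1A, the oxygen-sensing factor, was higher by 0.89 with enzastaurin, a call lost with the slide as a block.

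CEBPA, a C/EBP factor, differed between the 2 Go arrays, which lie on different slides. Its log2 levels were 13.98 and 11.61 in Go, 10.25, 11.56 and 11.02 in enzastaurin and 14.45, 14.28 and 13.62 in control. Go 1 lay among the control arrays with which it shares a slide, and Go 2 just over the enzastaurin arrays with which it shares the other. Enzastaurin minus control was -3.17 (adjusted p from limma 0.00206), and -0.80 with the slide as a block (adjusted p 0.446). TXN, thioredoxin, which can reduce the disulfide bonds of DEFB1, was arranged in a like way, at 14.28 and 15.15 in Go, 15.08, 15.11 and 15.25 in enzastaurin and 13.95, 13.80 and 13.81 in control. Go 2 lay within the enzastaurin range of TXN and Go 1 nearer to control. With 1 Go array on each slide, the slide cannot be told apart from scatter between the Go arrays in either gene. The fit with the slide as a block cannot separate them, and the part of the slide was not tested.

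Processing enzymes and partners had 13 of 18 genes measured. With enzastaurin 3 were called higher and 7 lower (median -0.30), against 18.1% and 36.8% of all genes (median -0.14). With Go 1 was called higher and 5 lower (median -0.30), against 11.6% and 20.1% of all genes (median -0.10). TXN was higher by 1.29 with enzastaurin (adjusted p 0.000930) and by 0.86 with Go (adjusted p 0.0199). KLK5, a skin protease that processes cathelicidin, differed by -0.68 with enzastaurin and -0.40 with Go. KLK8, a related protease, differed by -0.60 with enzastaurin, MMP9, a matrix protease that forms a complex with the LCN2 protein, by -0.69 with enzastaurin and -0.50 with Go, and the lysosomal protease CTSB by -0.75 with Go. All of the calls named for TXN, KLK5, KLK8, MMP9 and CTSB were lost with the slide as a block. For Go minus control that fit, the same as without Go 2, gave TXN 0.42, CTSB -0.39, MMP9 -0.46 and KLK5 -0.47. Without control 2 limma's adjusted p for Go minus control was 0.0649 for TXN, 0.0715 for CTSB, 0.0503 for MMP9 and 0.119 for KLK5. With Go, KLK5 also lost its call without control 1, enzastaurin 1 or Go 1, and CTSB without control 1. Arrays scaled to their median lost the call of KLK8 with enzastaurin (-0.24, limma's adjusted p 0.225). They also lost those of KLK5 (-0.21, adjusted p 0.326) and CTSB (-0.55, adjusted p 0.0626) with Go. With arrays scaled to their 75th percentile KLK5 with Go was at -0.33 (limma's adjusted p 0.0837). As a description, Go minus enzastaurin was -0.43 for P2RX7, a receptor for extracellular ATP, -0.40 for CTSL, a lysosomal protease, and 0.58 for EHF, an epithelial transcription factor of the regulator list.

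**Figure D4:**
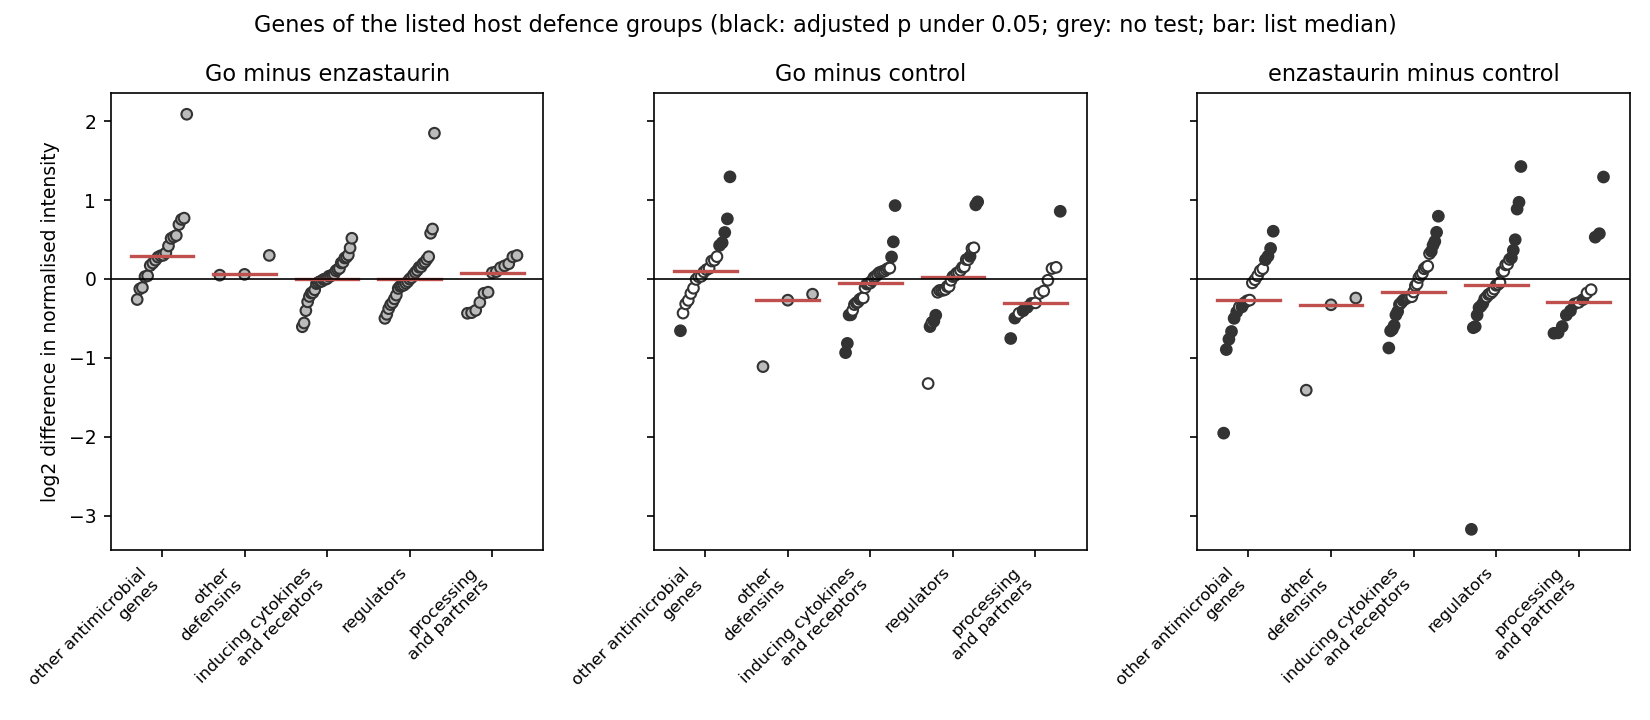
Log2 difference in normalised intensity (vertical axis) of each measured gene of the 5 listed groups, in Go minus enzastaurin, Go minus control and enzastaurin minus control; black points have an adjusted p under 0.05 in limma, grey points (all of Go minus enzastaurin, and the other defensins) have no test, and red bars are list medians. PI3 lies at 2.09 in Go minus enzastaurin and at -1.95 in enzastaurin minus control, and CEBPA at -3.17 in enzastaurin minus control.

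Across the 8 arrays, the genes whose normalised log2 intensity followed DEFB103 most closely were BDKRB1, a bradykinin receptor, with a Pearson r of 0.99, SH2D5 and HSD17B7 with 0.98, and CDH26 and DNAJB11 with 0.97. For DEFB4A they were SNX8 (0.99), ELL2 (0.98), SPCS3, SH3PXD2A and IGSF9 (0.97 each). For DEFB1 they were ZNF777 (0.99), LIFR, RPP25 and UCHL1 (0.98 each) and ZNF688 (0.97). RNASE7 was followed by GNA15 at 0.97 and by NRBP1, MR1, CXADR and CDC25B at 0.95, and LCN2 by CASD1 at 0.97, CCPG1 at 0.96, LYPD6B at 0.95 and ZNF587 and ZNF786 at 0.94. These are the highest of 12908 genes over 8 points that share slides and groups, so they are descriptions.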

How the data were processed

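Gene expression was measured on 8 single-colour arrays, per the labels' protocols with total RNA. Per the file headers, the deposited GenePix tables give spot intensity of foreground and background, uncorrected, with a signal-to-noise score, the percent of saturated pixels and spot positions. A deposited value table holds, by comparison with these, the authors' background-subtracted intensity, not normalised (array medians 38 to 56). The annotation runs end for end against the spots: the SD between spots of the same probe was 3.80 to 4.22 (log2) as deposited and 0.565 to 0.654 once rotated, when the rank correlation with the value table was 0.990 to 0.994 across probes. The rotated annotation was used.

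Normexp with offset 50 was applied to foreground means and background medians, followed by quantile normalisation. Probes with a score over 3 on at least 2 arrays were tested, the probe with the highest mean standing for its gene (12908 genes), in limma 3.58.1 (R 4.3.3) with 3 groups, Benjamini-Hochberg adjustment over all genes and a threshold of 0.05. The test was tried on simulated arrays with independent noise, no slide effect and changes in enzastaurin only. That trial could not check the part of the slide or Go minus control. No fold is given for a probe above background on no array of a group. Slides were inferred from spot positions, and the slide was tried as a block. Arrays were treated as unpaired, and correlations of same-numbered deviations from the group means lay between -0.145 and 0.151. The deviations of the 2 Go arrays mirror each other by construction, so these correlations cannot exclude a pairing. The replicate number was also tried as a block.

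The members, lists, tests and alternatives were chosen with earlier results of these data known. Named genes are all members, up to 4 called genes per list and comparison with the largest difference, defining markers, and the 5 genes most like each member. The spots beside DEFB103 were named after their values were seen. Gene names were brought to RefSeq symbols.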

Additional observations from a re-analysis of the deposited data

How the results depend on the processing

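DEFB4A was higher with enzastaurin than in control under all 19 alternatives, by 0.26 to 0.98 (log2), and called in all but the slide block. RNASE7 was lower with Go under all 19, by -0.69 to -0.36. Part of this tally was fixed in advance for both genes. The alternatives on the filter, on a gene's probes and with the 2 groups alone could not change these differences. Leaving out an array of the third group could not either. With arrays scaled to their 75th percentile, 2 members were called for enzastaurin minus control (DEFB1 and DEFB4A), 0 with the slide as a block, against 1. For Go minus control 0 were called with median scaling, the 2 groups alone or the slide block, against 1, and 0 to 1 when an array was left out. Directions turned for LCN2, enzastaurin minus control (0.059 with median scaling), RNASE7, enzastaurin minus control (-0.0078 with the 75th percentile; -0.062 to 0.13 when an array was left out), and DEFB4A, Go minus control (0.00999 with the 75th percentile, 0.13 with the median; -0.24 to 0.17 when an array was left out); none of these was called. DEFB103, Go minus enzastaurin, was -1.78 with offset 16 and -1.49 from the value table, against -1.30, and failed a filter of 5 arrays.

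Counts of calls in Go minus enzastaurin are given with nothing read from them. List genes called were 55, 27 and 11 for enzastaurin minus control, Go minus control and Go minus enzastaurin. The 5 lists held 20, 3, 29, 27 and 13 measured genes. Over all genes 18.1% were called higher and 36.8% lower, 11.6% and 20.1%, and 4.90% and 3.27%. The list counts here and below take in the other defensins, which are given above with no test. These gave 2 of the calls with enzastaurin and 1 with Go against control. The slide block left 6 and 8 in the comparisons with control, and the replicate block 5 in Go minus enzastaurin. Leaving out an array gave 37 to 61, 8 to 38 (lowest without Go 2 or control 2) and 4 to 16 (lowest without enzastaurin 1 or 2). The list counts under other scalings and the replicate block were added after seeing the data. None of the 55 named differences changed sign under either scaling. They were picked as called genes with the largest differences of their lists, which largely fixed this in advance, so nothing is read from it. Some of their calls were lost with these scalings, as given above for KRT14, KLK5, KLK8, CTSB, NFKB1 and TNFRSF1A among others. Some list medians changed sign. For enzastaurin minus control with arrays scaled to their median, the median was 0.035 for other antimicrobial genes (4 called higher, 5 lower). It was 0.092 for inducers (6 and 3), 0.17 for regulators (10 and 3) and -0.084 for processing and partners (3 and 3). With quantile normalisation these medians were -0.27, -0.16, -0.08 and -0.30. Over all genes, calls were 7095, 4098 and 1055. They were 553 and 824 against control with the slide block, 329 (Go minus control) with 2 groups alone, 2364 (Go minus control) with median scaling, and 528 (Go minus enzastaurin) with the replicate block. Testing every probe gave 13033, 7348 and 1108. Leaving out an array gave 5399 to 7783, 824 to 5578 and 246 to 1706, lowest without control 2, Go 2 and enzastaurin 2. The causes were not tested.

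Limits: Go has 2 arrays on different slides. DEFB1, CAMP and DEFB103 lie near background, where small differences cannot be measured.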
